A study of Homo sapiens with 2 samples.

Results

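Cells cut oxidized bases out of their DNA by base excision repair, and 9 genes of its core steps are described here. They are the 6 glycosylases for oxidized bases (NEIL3, NEIL1, NEIL2, OGG1, NTHL1 and MUTYH), the endonuclease gene APEX1, the scaffold gene XRCC1 and the polymerase gene POLB. They were taken by gene symbol from the 56558 symbols of the deposited table. Each of the 9 has a single row, and all 9 reached 1 FPKM in both libraries. FPKM means fragments per kilobase of transcript, scaled to the mapped fragments of a library. Levels can thus be set side by side between genes, and between libraries only as far as their makeup is alike. Mitochondrial genes held 23.1% of the FPKM sum with shGFP and 26.3% after knockdown.

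The cells were Huh7, an established human hepatocellular carcinoma line, at passages 5 to 8. There was 1 library from shGFP control cells, named for a hairpin directed at green fluorescent protein, and 1 library from cells labelled Neil3 KD, a knockdown of NEIL3. The labels give neither the means of the knockdown nor the number of clones or cultures behind each library. Total RNA was sequenced after strand-specific library preparation.

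In base excision repair a glycosylase finds a damaged base and cuts it from its sugar. The abasic site left behind is cut by an endonuclease, a polymerase fills the gap, and a ligase held by a scaffold protein closes the strand. The glycosylases overlap in the lesions they take, and in liver, a tissue with high oxidative metabolism, oxidized bases are a common kind of damage. NEIL3 prefers single-stranded DNA and can also unhook crosslinks between strands at replication forks, and its transcript is known to be made mainly in dividing cells.

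The 10 hepatocellular markers, among them ALB, AFP and HNF4A, were all at 1 FPKM or more in both libraries, with levels that summed to 2651 FPKM under shGFP and 2853 FPKM under knockdown. Single markers differed more than the sum, with AFP at 12.3 and 59.8 FPKM and SERPINA1 at 226 and 367 FPKM. ALB, at 1346 and 1272 FPKM, and GPC3, at 529 and 454 FPKM, were lower after knockdown, and the others of this list were higher. Of the markers of other cells, PTPRC (leukocytes) stood at 0.149 and 0.224 FPKM, and CDH5 (endothelium) at 0.205 and 0.276 FPKM. At 1 FPKM or more in both libraries were 2 of the 5 leukocyte genes, LYZ at 1200 and 2353 FPKM and CD14 at 2.57 and 5.33 FPKM. So were 1 of the 4 endothelial genes, PECAM1 at 2.90 and 3.60 FPKM, and all 5 fibroblast or stellate genes, whose levels summed to 32.1 and 38.9 FPKM. Among these 5, PDGFRB differed most, at 3.32 and 9.19 FPKM, and COL3A1 was lower, at 5.63 and 4.89 FPKM. The part of the markers of other cells in the results was not tested. The number of fragments per library is unknown. The ratio of knockdown to control was also read in 6102 symbols with a low value in both libraries (under 0.3 FPKM). The most frequent ratio among them was 1.28, with 409 symbols within about 1% of it. Such a ratio is what 1 fragment against 1 fragment would give at a relative depth of 78.0% for the knockdown library. With 1 library a group there is no replicate, no error between samples and no test, so "higher" and "lower" below describe these 2 libraries. A lower transcript level in bulk RNA also cannot be told apart from fewer cells that make it.

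NEIL3, the targeted gene (ENSG00000109674, GRCh38 chromosome 4, 177309836 to 177362943, plus strand), was lower where the label says it was knocked down. It was measured at 5.34 FPKM with shGFP and at 2.84 FPKM after knockdown, so that 53.2% of the control level remained. The log2 ratio, taken as log2((knockdown + 1)/(control + 1)), was -0.72. By the plain ratio, without the added 1 FPKM, it was 1.88-fold lower. Over the 14209 symbols with 1 FPKM or more in at least 1 library, 386 (2.72%) had a log2 ratio as low or lower. Among the 3804 symbols with a mean level from 2.05 to 8.19 FPKM around that of NEIL3, 165 (4.34%) lay as low. GENCODE lists 1 coding transcript for NEIL3, of 2408 bases in 10 exons, where MUTYH has 17 and NEIL1 and APEX1 have 13 each.

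XRCC1, the scaffold that gathers the polymerase and ligase at a cut strand (ENSG00000073050, chromosome 19, 43543040 to 43580473, minus strand), was the member with the next lowest ratio. It was at 20.8 FPKM with shGFP and 14.3 FPKM after knockdown, a plain ratio of 0.685 and a log2 ratio of -0.52. This is short of the 1.5-fold used for counting. Among the 5359 symbols with a mean level from 8.76 to 35.1 FPKM around its own, 160 (2.99%) lay as low, a smaller share than for NEIL3. Over all symbols the share was 5.77%, a larger one. In absolute terms the difference was -6.56 FPKM for XRCC1 and -2.50 FPKM for NEIL3.

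**Figure D1:**
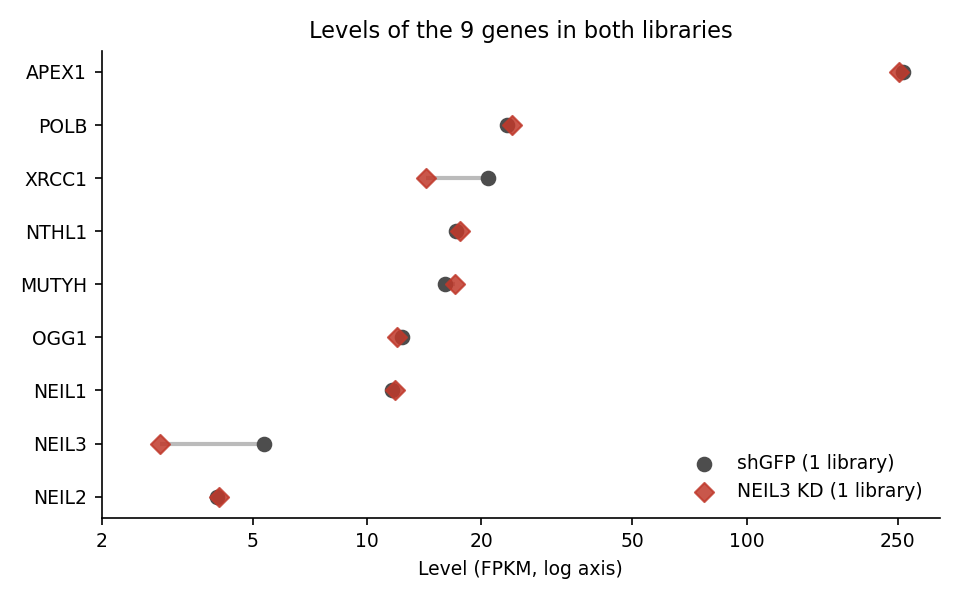
Level of each of the 9 genes in FPKM on a log axis, ordered by the control level, with a grey circle for the shGFP library and a red diamond for the NEIL3 knockdown library. NEIL3 (5.34 and 2.84 FPKM) and XRCC1 (20.8 and 14.3 FPKM) have separate symbols, and those of the other 7 genes nearly coincide.

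The sequences around the start sites are shown for NEIL3 and XRCC1, the members furthest apart between the libraries, and for OGG1 as a member with close values. They are RefSeq windows of 300 bases (build GRCh38.p14), 250 before and 50 after the annotated start, written 5′ to 3′ along the gene. Capitals mark matches on either strand to 6 motifs: the GC box GGGCGG, the cell cycle homology region TTTGAA, the CCAAT box CCAAT, the NRF1 core GCATGC, the E2F core GCGGGAA and the ETS core CCGGAA. No matches overlap in the 3 windows. The positions are chr4:177309624-177309923 (plus strand) for NEIL3, chr19:43575478-43575777 (minus strand) for XRCC1 and chr3:9749702-9750001 (plus strand) for OGG1. The RefSeq start of XRCC1 lies inside the span that the deposited table gives for the gene.
NEIL3: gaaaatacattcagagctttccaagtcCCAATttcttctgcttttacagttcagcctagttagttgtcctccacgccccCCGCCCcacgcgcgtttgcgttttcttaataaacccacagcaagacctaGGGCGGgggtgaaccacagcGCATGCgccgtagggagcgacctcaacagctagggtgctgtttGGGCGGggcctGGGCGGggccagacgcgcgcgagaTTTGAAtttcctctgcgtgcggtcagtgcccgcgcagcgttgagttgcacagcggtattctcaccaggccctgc
XRCC1: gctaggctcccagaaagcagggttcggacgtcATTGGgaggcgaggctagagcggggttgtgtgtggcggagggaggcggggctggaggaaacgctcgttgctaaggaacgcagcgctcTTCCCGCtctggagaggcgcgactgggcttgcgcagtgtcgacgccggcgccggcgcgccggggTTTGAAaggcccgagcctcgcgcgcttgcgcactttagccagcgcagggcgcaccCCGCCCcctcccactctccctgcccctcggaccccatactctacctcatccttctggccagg
OGG1: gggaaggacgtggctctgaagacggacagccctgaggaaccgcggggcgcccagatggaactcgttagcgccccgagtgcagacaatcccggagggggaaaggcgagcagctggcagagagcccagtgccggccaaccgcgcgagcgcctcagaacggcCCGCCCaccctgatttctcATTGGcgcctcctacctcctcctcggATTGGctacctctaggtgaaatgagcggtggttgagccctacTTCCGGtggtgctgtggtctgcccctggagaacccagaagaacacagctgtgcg

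The NEIL3 window held 4 GC boxes, a CCAAT box, an NRF1 core that starts 102 bases before the start site, and a TTTGAA that starts 24 bases before it. TTTGAA is the element through which many genes of dividing cells are held off outside the late cell cycle. It was present in 15.2% of the 35116 RefSeq windows of this length, and the NRF1 core in 7.22%. The XRCC1 window also held a TTTGAA, 67 bases before the start site, with a GC box, a CCAAT box and an E2F core (6.55% of windows). The OGG1 window held a GC box, a pair of CCAAT boxes and an ETS core (17.2% of windows) but neither TTTGAA nor the E2F core. GC boxes were in 45.0% and CCAAT boxes in 34.6% of all windows, so these are common. Of the other members with a window, MUTYH had a TTTGAA in 1 of its 3 windows, and NEIL1, NTHL1 and APEX1 had none. The E2F core was absent from the NEIL3 window and present in 1 of the 3 windows of MUTYH, a member with close values. FPKM measures transcripts and not promoter use, so these letters are a description of the genes.

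The other glycosylases stayed at nearly the same level. NEIL1, which takes oxidized pyrimidines and ring-opened purines (ENSG00000140398, chromosome 15, 75346955 to 75357114), was at 11.6 FPKM with shGFP and 11.8 FPKM after knockdown. NEIL2, which acts on similar lesions in bubbles and transcribed DNA (ENSG00000154328, chromosome 8, 11769639 to 11787346), was at 4.03 and 4.07 FPKM. Neither relative of NEIL3 was therefore higher by more than 2% in the library in which NEIL3 was lower.

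OGG1, the main glycosylase for oxidized guanine paired with cytosine (ENSG00000114026, chromosome 3, 9749944 to 9788219), was at 12.35 FPKM with shGFP and 12.02 FPKM after knockdown. MUTYH, which removes adenine placed opposite oxidized guanine (ENSG00000132781, chromosome 1, 45329163 to 45340470), was at 16.02 and 17.07 FPKM. NTHL1, which removes oxidized pyrimidines such as thymine glycol (ENSG00000065057, chromosome 16, 2039815 to 2047866), was at 17.1 and 17.6 FPKM. MUTYH had the highest ratio of all 9 members, 1.07, and 40.1% of all symbols had a log2 ratio as high or higher.

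The enzymes after the glycosylase step were as close. APEX1, the endonuclease that cuts the abasic site (ENSG00000100823, chromosome 14, 20455191 to 20457772), was at 257 FPKM with shGFP and 252 FPKM after knockdown. POLB, the polymerase that fills the gap (ENSG00000070501, chromosome 8, 42338454 to 42371808), was at 23.36 and 24.03 FPKM. XRCC1 stood at 0.891 times the level of POLB with shGFP and at 0.593 times after knockdown.

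Counted together, 1 of the 9 members (NEIL3) was lower by 1.5-fold or more with 1 FPKM added to each value, and 0 were higher by as much, where 4.48% of all 14209 symbols were lower and 4.55% higher. The plain ratio gave the same counts of 1 and 0, where 7.56% of all symbols were lower and 7.08% higher. The 1 member counted is the targeted gene. Among the remaining 8 members 0 passed, with a median log2 ratio of 0.02, beside 0.02 over all symbols; over all 9 the median was 0.01, with 4 members below 0 and 5 above, of which NEIL1, NEIL2, NTHL1 and POLB change sign under another scaling of the libraries. By plain ratio 7 of the 9 lay within 1.1-fold, from 0.974 (OGG1) to 1.07 (MUTYH), where 35.2% of all symbols did; this limit was chosen after the values were seen.

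**Figure D2:**
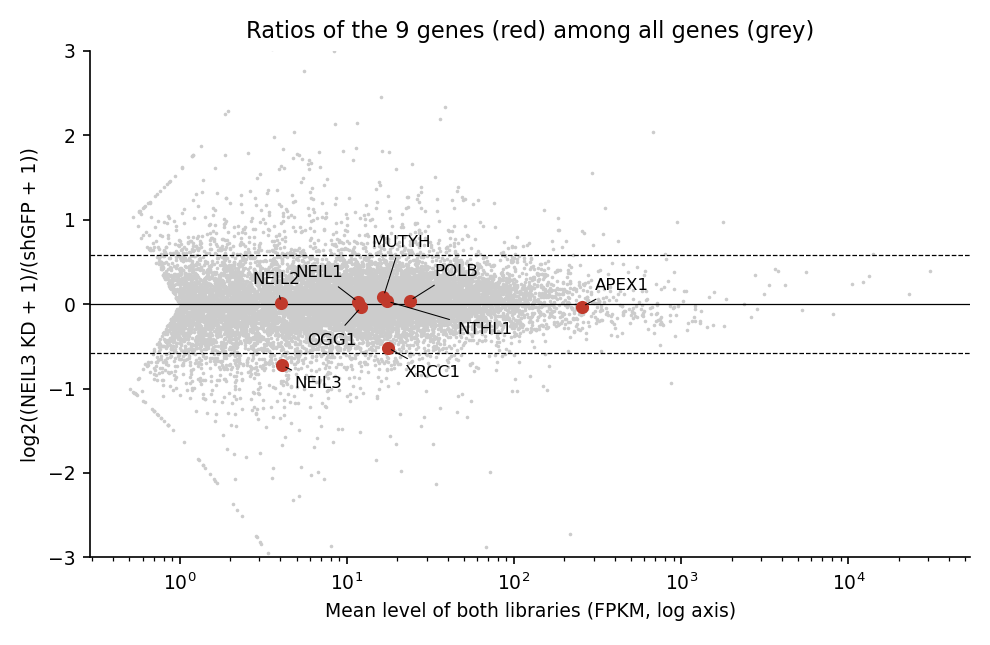
Log2 ratio of knockdown to control, with 1 FPKM added to each value, against the mean level in FPKM on a log axis, for 14209 symbols (grey) and the 9 genes (red); dashed lines mark 1.5-fold, and 25 symbols lie beyond the plotted range of ratios. NEIL3 lies below the lower line at -0.72, XRCC1 just above it at -0.52, and the other 7 lie between -0.04 and 0.09.

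In the authors' deposited table none of the 9 was marked as significant, among 13 genes marked there in all. For NEIL3 the authors' deposited table gives p = 0.280 and q = 0.9996, and for XRCC1 the authors' deposited table gives p = 0.506. These p-values compare 1 library with 1 library and not the conditions.

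The levels of the 9 genes spanned a wide range, and their order changed only at NEIL3 and XRCC1. In the control the order from the top was APEX1, POLB, XRCC1, NTHL1, MUTYH, OGG1, NEIL1, NEIL3 and NEIL2. APEX1 stood 11.02-fold above POLB, the next member, and above 98.6% of all symbols. In the knockdown library XRCC1 moved from place 3 to place 5, below NTHL1 and MUTYH, and NEIL3 from place 8 to place 9, below NEIL2. The level of NEIL3 was 1.33 times that of NEIL2 with shGFP and 0.699 times after knockdown. With no replicate, the order of close neighbours such as NEIL1 and OGG1, or MUTYH and NTHL1, cannot be set against an error.

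Among the 6 glycosylases NEIL3 was a small part of the transcripts even in the control. It made up 8.04% of their summed FPKM with shGFP and 4.35% after knockdown. NTHL1 and MUTYH were the largest parts, at 25.8% and 24.1% with shGFP and 26.9% and 26.1% after knockdown. The sum of all 6 was 66.5 FPKM with shGFP and 65.4 FPKM after knockdown, and without NEIL3 it was 61.1 and 62.5 FPKM. Within the NEIL family alone, NEIL3 made up 25.5% and 15.2% of the summed FPKM. Transcript shares say nothing of protein or enzyme activity.

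**Figure D3:**
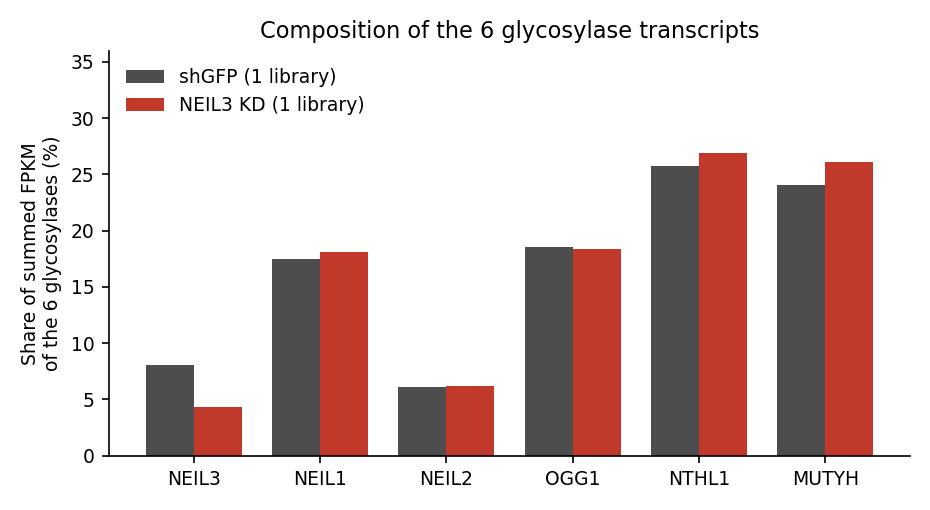
Share of each of the 6 glycosylase genes in their summed FPKM, in percent, for the shGFP library (grey bars) and the NEIL3 knockdown library (red bars). The bar of NEIL3 goes from 8.04% to 4.35%, and that of MUTYH from 24.1% to 26.1%.

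Other genes of the pathway were read from 7 partner lists by role, with 57 names of which 56 were found and counted. Of the 56, 0 were lower and 2 were higher by 1.5-fold or more with 1 FPKM added. Over all symbols 4.48% were lower and 4.55% higher by as much, or 9.04% in either direction. The median of the 56 was -0.0019 on the log2 scale, with 29 genes below 0 and 27 above. The higher genes were POLE4 and PARP3. POLE4, a small histone-fold subunit of the replicative polymerase epsilon, was at 5.74 FPKM with shGFP and 10.4 FPKM after knockdown, a log2 ratio of 0.76. PARP3, a poly(ADP-ribose) polymerase family member that responds to strand breaks, was at 2.62 and 4.82 FPKM, a log2 ratio of 0.69.

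Their partners in the same complex or family stood closer between the libraries. The catalytic subunit POLE was at 21.2 and 22.1 FPKM, POLE2 at 19.3 and 18.3 FPKM, and POLE3, which pairs with POLE4, at 31.0 and 33.4 FPKM. PARP1, the main sensor of strand breaks that brings XRCC1 to them, was at 121 FPKM in both libraries, and PARP2 at 34.7 and 33.0 FPKM. LIG3, the ligase that binds XRCC1, was at 12.6 FPKM with shGFP and 12.9 FPKM after knockdown. The lower level of XRCC1 was thus not seen in its ligase, in PARP1 or in POLB.

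The glycosylases for uracil, alkylated and mismatched bases (UNG, SMUG1, TDG, MBD4 and MPG) had a median log2 ratio of -0.05. MBD4, which acts on mismatched thymine, was lowest at 24.03 and 18.56 FPKM, and SMUG1, which acts on uracil, highest at 25.4 and 30.2 FPKM. Of the 6 genes for end processing, with a median of 0.03, APLF, a histone chaperone that acts at strand breaks, was lowest at 1.52 and 1.13 FPKM and APEX2, a relative of APEX1, highest at 9.44 and 10.7 FPKM. In the strand-break list (5 counted, median -0.0024) ADPRHL2, a hydrolase of ADP-ribose marks, was lowest at 9.29 and 8.35 FPKM. The short-patch list had a median of 0.16 over 4 genes, from the gap-filling polymerase POLL at 10.5 FPKM in both libraries to its relative POLM at 6.03 and 7.80 FPKM. In the long-patch list, with a median of 0.08 over 16 genes, RFC1, the large subunit of the clamp loader, was lowest at 51.84 and 43.35 FPKM.

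The list closest to NEIL3 itself holds the replication proteins at which it meets a crosslink, with TRAIP, the ubiquitin ligase that calls NEIL3 to a stalled replisome, and HMCES, which caps abasic sites in single-stranded DNA. It had a median log2 ratio of -0.05 over 16 genes. Of these 0 were at least 1.5-fold apart, where 9.04% of all symbols were. HMCES was at 20.1 and 17.1 FPKM. TRAIP was lowest, at 4.94 FPKM with shGFP and 3.97 FPKM after knockdown. CDC45, a part of the replicative helicase, was highest at 11.7 and 14.8 FPKM. Among enzymes that clear oxidized nucleotides before they enter DNA (4 genes, median -0.04), NUDT1 was at 8.88 and 8.46 FPKM. The lowest of these was NUDT5, at 30.3 and 28.2 FPKM, and the highest NUDT18, at 2.56 and 2.69 FPKM.

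**Figure D4:**
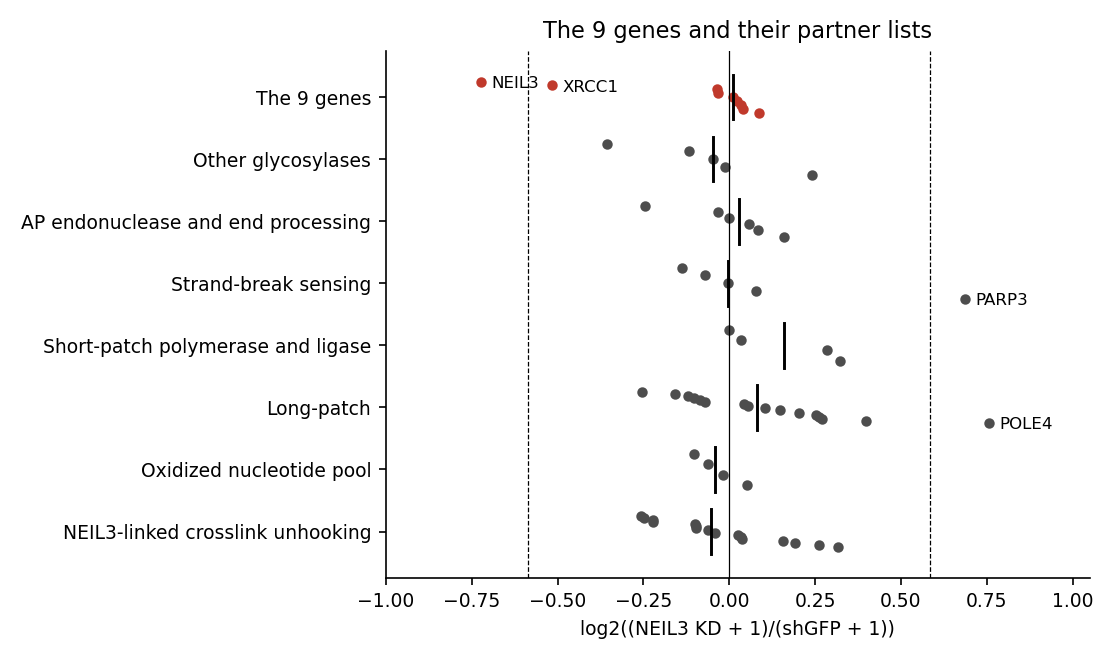
Log2 ratio of knockdown to control, with 1 FPKM added to each value, for the 9 genes (red) and the 56 genes of the 7 partner lists (grey), 1 point a gene; black bars mark medians and dashed lines 1.5-fold. NEIL3, PARP3 and POLE4 lie beyond 1.5-fold, and the list medians run from -0.05 to 0.16.

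Genes that overlap a member can exchange fragments with it in the authors' model. Such an overlap exists for 8 of the 9 members, NEIL2 being the exception, and 13 of the 14 overlapping genes lie on the opposite strand. NEIL3 is overlapped by AC027627.1, an antisense gene listed at the floor of 1e-05 FPKM in both libraries. XRCC1 is overlapped on its own strand by L34079.1, also at that floor in both libraries, and on the other strand by PINLYP, at 0.124 and 0.133 FPKM. The antisense L34079.2 and L34079.3 over XRCC1 are listed at the floor in both libraries. No overlapping gene listed at 1 FPKM or more touches NEIL3 or XRCC1. The floor values come from the same assignment of fragments, and the effect of these overlaps was not tested.

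The overlaps of the other 6 members include expressed genes. MAN2C1 crosses the end of NEIL1 by 1908 bases and was at 74.4 and 90.6 FPKM, above NEIL1 itself, while the antisense AC068338.3 at its other end was at 2.73 and 1.71 FPKM and MIR631 within it is listed at the floor. CAMK1 (8.34 and 8.96 FPKM) and TADA3 (23.1 and 24.1 FPKM) lie across OGG1. TSC2 (22.0 and 23.3 FPKM) overlaps the start of NTHL1 by 402 bases, TOE1 (4.81 and 6.10 FPKM) that of MUTYH by 801 bases, and TMEM55B (30.9 and 27.0 FPKM) the end of APEX1 by 54 bases. Within POLB lies RPL5P23, a ribosomal protein pseudogene at 3.70 and 3.91 FPKM. The authors' strand setting is not known here, and the effect of these overlaps on the members' values was not tested.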

How the data were processed

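Gene expression was measured by RNA sequencing in 1 shGFP and 1 NEIL3 knockdown library of Huh7 cells. The tools named, per the submitters' processing notes, are Cufflinks 2.2.1, Cuffdiff, HISAT2 2.1.0, SAMtools 1.2, Trimmomatic 0.36 and bcl2fastq, on build GRCh38.p10. Which annotation release they used is unknown here. Per the file headers, the deposited table holds an FPKM value per library for 58220 genes. Its ratio and log2 ratio columns are the authors' quotient of the FPKM values without a pseudocount, and its p-values and q-values are the authors' deposited comparison of 1 library with 1 library. Because FPKM is not a count, count tests were not used, and the depth is unknown.

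For the 213 symbols on several rows the row of highest mean FPKM was kept. The log2 ratio used a pseudocount of 1 FPKM, so that changes of low genes are understated, and counts of all genes cover the 14209 symbols with 1 FPKM or more in at least 1 library. A gene was counted as apart at 1.5-fold. Spans of the 9 members were those of GENCODE release 29, which gave the transcripts; windows around start sites came from RefSeq and matched 7 members by symbol. The text names the 9 members, the lowest and highest gene of each partner list with any 1.5-fold apart, and overlapping genes at 1 FPKM or more. The other partner and overlapping genes named, and the motifs, were chosen with the values seen. Members and lists were chosen with earlier results of these data known. Other pseudocounts, scalings, row rules and FPKM minimums were tried. The counting step was tested on simulated data with planted changes well beyond 1.5-fold, which checks the code only. Python 3.11.15, pandas 2.3.3 and matplotlib 3.10.9 were used.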

Additional observations from a re-analysis of the deposited data

How the results depend on the processing

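Of the 9 alternatives, only the 3 rescalings of the libraries could change the sign of a member's ratio. The log2 ratio of NEIL3 stayed below 0 under each of these, from -0.77 to -0.74. Its size depended on the pseudocount: it was -0.91 with none, -0.89 with 0.1 FPKM and -0.40 with 5 FPKM, where 0 members remained at least 1.5-fold lower. The count of 2 higher partner genes became 0 with a pseudocount of 5 FPKM and 1 with an FPKM minimum of 5. The share of all symbols at least 1.5-fold higher was then 1.74% and 3.95%, and the share lower 1.25% and 3.18%. In these cases the larger pseudocount or the minimum itself weighs on genes of low level. XRCC1 ran from -0.58 to -0.42. The libraries were rescaled to the FPKM sum without mitochondrial genes, to a median ratio of 1 or to the upper quartile. These rescalings moved no ratio of a member by 0.1 or more on the log2 scale, the limit used because there is no replicate spread. Summing rows of a symbol or changing the minimum could not alter a member's ratio. Each member has a single row, and the minimum only chooses which symbols are counted. The members' small ratios changed sign in places. That of NEIL1 was below 0 under 2 alternatives, that of NEIL2 under 3, and those of NTHL1 and POLB under 1 each. Their place above 0 in the main count is therefore not read as a direction. No paired analysis was possible because each group has 1 library. The unknown depth and the single library per group limit all values to a description, since neither counting error nor replicate error could be computed.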
